A study of Mus musculus with 6 samples.

Results

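Interferon-stimulated genes are genes whose transcription rises when a cell receives an interferon, and 39 of them were followed here in 3T3L1 cells, a line of mouse fibroblasts that hormones turn into adipocytes. They were taken by gene symbol from the deposited table of 53342 genes, and all 39 were found and tested. Every group received the same induction, 2 days of dexamethasone (1 µM), insulin (1 µg/ml) and the phosphodiesterase inhibitor IBMX (0.5 mM) after confluence and then insulin alone. The groups were untreated cells, which differentiated without any addition, cells given the solvent DMSO, and cells given LTK-14A, which the labels call a butyrylation inhibitor, with 2 libraries of total RNA in each. How much LTK-14A was given, and when, is not given in the sources used here. Samples of a group carry numbers in the labels without saying that they came from separate cultures, so every p-value below measures only the spread between these samples. All cells come from a single established line, and the labels name no interferon or virus.

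Type I interferons act through the receptor made of Ifnar1 and Ifnar2, whose kinases Jak1 and Tyk2 phosphorylate Stat2. With Irf9 it enters the complex ISGF3, which binds the interferon-stimulated response element (ISRE) of antiviral genes. Interferon gamma acts through Ifngr1 and Ifngr2 on genes with gamma-activated sites (GAS). Many of the target genes are also transcribed at a low level in cells that meet no virus, and interferon gamma is known to hold back the differentiation of preadipocytes.

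The promoters of 6 genes are printed because they show the motifs of this pathway in genes whose values took different directions. Each window is a RefSeq sequence of build GRCm38.p6 and runs from 250 bases before the annotated start to 50 bases after it, written 5′ to 3′ along the gene. Capitals mark matches to the ISRE core, searched as 2 copies of GAAA separated by 2 bases on either strand, so that the other strand shows as TTTC, or to the GAS motif TTCNNNGAA. Isg15 (chr4:156200769-156201068, minus strand) is shown for its 3 overlapping ISRE matches. Gbp2 (chr3:142620413-142620712, plus strand) had the largest fall among the 39 genes in LTK-14A against DMSO, and Igtp (chr11:58199306-58199605, plus strand) holds a GAS and an ISRE match side by side. The neighbours Ifit1 (chr19:34640639-34640938, plus strand), Ifit3 (chr19:34583279-34583578, plus strand) and Ifit2 (chr19:34550444-34550743, plus strand) are set together because their values parted.
Isg15: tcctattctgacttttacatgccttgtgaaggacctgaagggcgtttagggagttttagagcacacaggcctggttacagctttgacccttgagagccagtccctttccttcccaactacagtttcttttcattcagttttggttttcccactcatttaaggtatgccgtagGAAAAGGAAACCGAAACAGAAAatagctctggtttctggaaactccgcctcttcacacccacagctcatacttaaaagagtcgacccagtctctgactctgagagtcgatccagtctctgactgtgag
Gbp2: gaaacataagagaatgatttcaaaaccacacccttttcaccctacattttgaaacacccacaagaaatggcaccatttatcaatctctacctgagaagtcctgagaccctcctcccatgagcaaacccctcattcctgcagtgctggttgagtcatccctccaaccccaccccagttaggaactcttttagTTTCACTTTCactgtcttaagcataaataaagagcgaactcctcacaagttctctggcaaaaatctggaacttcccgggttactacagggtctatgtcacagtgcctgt
Igtp: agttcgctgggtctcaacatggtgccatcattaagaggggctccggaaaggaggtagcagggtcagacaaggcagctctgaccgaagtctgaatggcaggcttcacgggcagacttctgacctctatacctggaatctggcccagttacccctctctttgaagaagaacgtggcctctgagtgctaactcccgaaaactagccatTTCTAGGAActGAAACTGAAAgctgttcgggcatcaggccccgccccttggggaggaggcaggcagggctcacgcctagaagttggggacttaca
Ifit1: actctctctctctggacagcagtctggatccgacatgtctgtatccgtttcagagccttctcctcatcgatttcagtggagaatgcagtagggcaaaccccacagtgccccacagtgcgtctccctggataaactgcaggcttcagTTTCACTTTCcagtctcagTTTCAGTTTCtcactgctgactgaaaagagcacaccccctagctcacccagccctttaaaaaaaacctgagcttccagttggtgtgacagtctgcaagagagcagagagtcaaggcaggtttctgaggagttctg
Ifit3: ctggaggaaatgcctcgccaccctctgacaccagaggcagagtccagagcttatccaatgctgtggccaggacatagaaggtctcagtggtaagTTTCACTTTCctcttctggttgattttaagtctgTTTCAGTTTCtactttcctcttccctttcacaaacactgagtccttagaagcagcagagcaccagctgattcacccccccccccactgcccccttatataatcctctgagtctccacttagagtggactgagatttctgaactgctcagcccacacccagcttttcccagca
Ifit2: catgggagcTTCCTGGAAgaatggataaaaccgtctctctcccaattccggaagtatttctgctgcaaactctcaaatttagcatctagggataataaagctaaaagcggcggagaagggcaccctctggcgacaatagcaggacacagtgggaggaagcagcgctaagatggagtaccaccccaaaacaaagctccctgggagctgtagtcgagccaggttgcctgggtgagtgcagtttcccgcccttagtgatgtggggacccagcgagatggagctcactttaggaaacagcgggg

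Counting the start base as 0, the ISRE matches began at -78, -72 and -66 in Isg15, at -59 in Gbp2, at -34 in Igtp, at -104 and -85 in Ifit1 and at -156 and -122 in Ifit3. The GAS matches began at -45 in Igtp and at -241 in Ifit2, whose 2 windows in the table held no ISRE match. RefSeq windows were given for 30 of the 39 genes (34 windows), and 17 of the 34 windows held an ISRE match, against 3.44% of all 32851 windows of the same length. When only the bases before the start were searched, the shares were 38.24% and 2.98%. A GAS match lay in 10 windows, 29.41%, against 8.3% of all windows. The 5 GTPase genes with a window each had an ISRE match. In LTK-14A against DMSO, the median log2 fold change of the level was -0.80 over the 17 genes with an ISRE match, -0.53 over the 13 with a window but no match, and -0.84 over the 9 with no entry (Dhx58, Ifi27, Iigp1, Mx1, Mx2, Parp9, Parp14, Rtp4 and Usp18). A match is a description of letters and not a site shown to be used.

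Levels are normalized values of the deposited table, read back from its log scale, and differences are log2 fold changes of value + 1, which understate the change of genes near 0. The libraries had summed values of 6122687 to 7091007. A stand-in for depth, the sum divided by the commonest low value of the library, ran from 2738469 to 6385419 steps. Untreated replicate 2 stood apart by 16.43% of its total in the loci Gm26917 and Gm42418, which hold ribosomal RNA, where the other libraries had 8.6% to 10.65%. Mature adipocyte markers went with the groups, since all 24 tested fell in LTK-14A against DMSO, and their summed level was 227537 to 304292 in the 4 other libraries and 46634 and 50528 with LTK-14A. Of 15 preadipocyte and fibroblast markers tested, 5 rose and 1 fell. Macrophage markers summed to 123 to 162 per library, 8 of 15 were tested, 1 rose and 1 fell, and Ptprc, Itgam, Tyrobp, C1qa, C1qb and C1qc were listed at 0 throughout. Lymphocyte markers summed to 3.11 to 7.47, with Cd3d, Cd3e, Cd3g and Ms4a1 at 0. Endothelial markers were low, summing to 38.8 to 53.4 in the 4 other libraries and to 22.2 and 21.3 with LTK-14A. Most of this sum was 1 gene, Egfl7, with 35.1 and 34.9 untreated, 31.1 and 32.1 with DMSO and 17.3 and 12.2 with LTK-14A. Being mostly 1 gene, the sum does not describe endothelial markers as a class. Egfl7 ends at 26593120 on chromosome 2, and the adipocyte marker Agpat2 on the opposite strand spans 26593057 to 26604417. Only their ends overlap, and whether they shared reads was not tested. Of the 10, Cldn5, Emcn and Erg were at 0 throughout and 4 were tested. Of these 4, 0 passed against DMSO (limma) and 2 had an unadjusted p under 0.05, with a median log2 fold change of -1.20. The log2 fold change was below 0 for 3 of the 4, and the highest was 0.33. Against untreated cells 1 of the 4 fell (8.17% of all genes), and it was not Egfl7 (adjusted p = 0.0551, limma). There the log2 fold changes ran from -2.54 to 0.85, with 3 of the 4 below 0. The part of the changes in adipocyte and endothelial markers in the results on interferon genes was not tested, and in bulk RNA fewer cells of a type and less RNA per cell cannot be told apart.

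Setting LTK-14A against its solvent asks what the inhibitor adds to the effect of DMSO. Of the 39 genes, 13 fell and 0 rose with LTK-14A (limma, Benjamini-Hochberg adjusted over 24139 genes, threshold 0.05), where 6.58% of all genes tested fell and 3.98% rose. The falls were those of Gbp2, Ifi27, Gbp3, Igtp, Iigp1, Irf7, Irf9, Ddx58, Ifih1, Isg15, Parp9, Parp14 and Lgals3bp, from 1.52-fold to 3.84-fold. The median log2 fold change was -0.65 over the 39 genes and -0.05 over all genes. Both LTK-14A libraries lay below both DMSO libraries for 28 of the 39 genes (29.8% of all genes) and above both for 2 (24.5% of all genes), which were Ifit2 and Samhd1. When a library of either group was left out, the other library of that group stood alone and was assumed to vary as the rest do. Such fits called fewer of all genes as well as of the 39, so the lost calls do not single out the 39. The median log2 fold change of the 39 was -0.80 with DMSO replicate 1 dropped and -0.55 with DMSO replicate 2 dropped. It was -0.51 when LTK-14A replicate 1 was dropped and -0.92 when its replicate 2 was, beside -0.06 to -0.04 over all genes. Without limma's variance trend 2 of the 39 fell (Gbp2 and Ifi27), where 3.53% of all genes did. With a pseudocount of 0.1, 5 fell (these 2, Gbp3, Irf7 and Irf9), where 6.16% of all genes did. Among the 13179 genes with a mean of 20 or more, 19 of the 38 members tested fell and 1 rose (Ifit2). In that set 14.4% of genes fell, a closer background for the members than 6.58%, which also counts genes of lower mean. Of the 39 genes, only Gbp2 and Ifi27 fell in all 8 alternatives that left no single library out. Conversely, Dhx58, Eif2ak2, Gbp7, Ifi35, Rtp4, Usp18 and Xaf1 were called lower in at least 1 alternative.

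**Figure D1:**
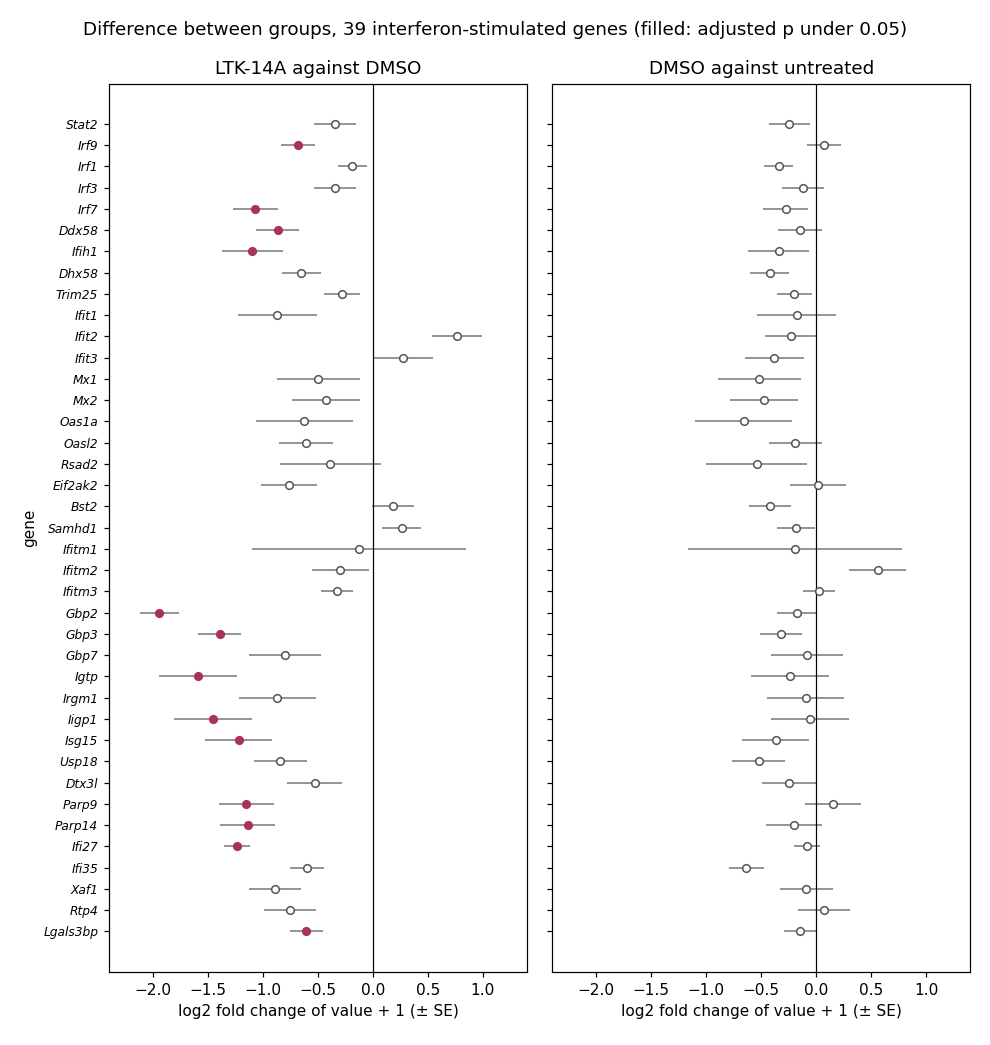
Log2 fold change of value + 1 (points) with its standard error (bars) for the 39 genes in LTK-14A against DMSO (left) and DMSO against untreated (right); filled points have an adjusted p under 0.05. The 13 filled points all lie on the left panel, below 0, and Ifit2 stands furthest above 0 there at 0.76.

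The interferon-inducible GTPases, which act on the vacuoles of intracellular pathogens, held the largest falls, with 4 of 6 called and a median log2 fold change of -1.43. This count and those of the other roles below are of small groups, beside 6.58% of all genes that fell and 3.98% that rose. Gbp2 (ENSMUSG00000028270, chromosome 3, 142620602 to 142638008 in mm10), a guanylate-binding protein, stood at 726 and 601 in the untreated libraries, 560 and 609 with DMSO and 131 and 174 with LTK-14A. The LTK-14A libraries were far below the other 4, which overlapped among themselves. The fold change was 3.84 on the value + 1 scale (log2 fold change -1.94, SE 0.18, adjusted p = 0.00079, limma). Its neighbour Gbp3 (chromosome 3, 142560026 to 142573209) had 1217 and 1222 in the untreated libraries, 871 and 1095 with DMSO and 309 and 445 with LTK-14A, so the 3 groups separated in that order (log2 fold change against DMSO -1.39, SE 0.19, adjusted p = 0.00488, limma). Gbp7, the next gene of this cluster, read 1414 and 668 untreated, 850 and 992 with DMSO and 449 and 616 with LTK-14A. Its difference from DMSO did not pass (log2 fold change -0.80, adjusted p = 0.170, limma).

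Among the immunity-related GTPases, Igtp, also called Irgm3, had 961 and 471 in the untreated libraries, 503 and 645 with DMSO and 147 and 242 with LTK-14A (log2 fold change -1.59, SE 0.36, adjusted p = 0.0317, limma). The untreated pair thus spanned the DMSO pair, while both LTK-14A values lay below all others. Iigp1, which coats parasite vacuoles, read 1085 and 490 untreated, 651 and 757 with DMSO and 208 and 312 with LTK-14A (log2 fold change -1.46, SE 0.36, adjusted p = 0.0423, limma). Irgm1, a regulator of the other members of its family, read 1077 and 565, 612 and 873, and 311 and 512 in the same order. The LTK-14A pair was the lowest for Irgm1 too, but its log2 fold change of -0.87 (SE 0.35) did not pass (adjusted p = 0.164, limma). Igtp shares 162 exon bases with Irgm2 on the same strand, so reads there could have been counted for either gene.

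**Figure D2:**
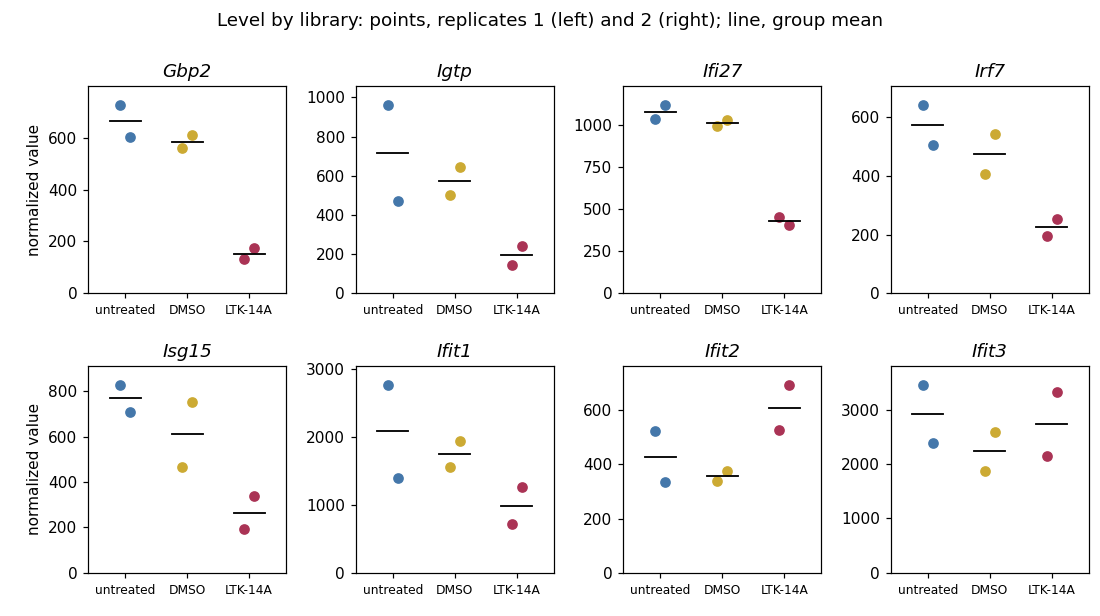
Normalized value of 8 genes (vertical axes, each from 0) in the 2 libraries of each group, with replicate 1 at left and replicate 2 at right and a line at the group mean. For Gbp2, Igtp, Ifi27, Irf7, Isg15 and Ifit1 both LTK-14A points are the lowest, while for Ifit2 they are the highest of the 6 and for Ifit3 the groups overlap.

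Of the 5 signalling and transcription factors, 2 fell. Irf7 (ENSMUSG00000025498, chromosome 7, 141262706 to 141266481), the factor that amplifies type I interferon production, read 641 and 505 in the untreated libraries, 408 and 542 with DMSO and 196 and 254 with LTK-14A. The LTK-14A values were about as far apart as those of the other groups on the log scale, and none reached the lowest of the others (log2 fold change -1.07, SE 0.21, adjusted p = 0.0185, limma). Irf9, the DNA-binding subunit of ISGF3, read 476 and 392, 438 and 470, and 259 and 308, with untreated and DMSO overlapping (log2 fold change -0.68, SE 0.16, adjusted p = 0.0334, limma). Stat2, the partner of Irf9 and the most abundant of the 5 by total value, read 2060 and 1816 untreated, 1416 and 1884 with DMSO and 1115 and 1481 with LTK-14A. Its DMSO and LTK-14A values overlapped, and the difference did not pass (log2 fold change -0.35, adjusted p = 0.303, limma). Irf1, a factor induced by interferon gamma, and Irf3, a factor that responds to nucleic acid sensors, had log2 fold changes of -0.19 and -0.34 that did not pass.

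Of the 4 RNA sensors and their regulators, 2 fell. Ddx58, the RIG-I sensor of viral RNA ends, had 1497 and 1214 in the untreated libraries, 1112 and 1333 with DMSO and 560 and 795 with LTK-14A (log2 fold change -0.87, SE 0.20, adjusted p = 0.0324, limma). Ifih1, the MDA5 sensor of long duplex RNA, had 394 and 236, 224 and 258, and 92.8 and 135 (log2 fold change -1.10, SE 0.28, adjusted p = 0.0479, limma). For both sensors the LTK-14A pair lay below the other 4 libraries, which overlapped. Dhx58, the LGP2 regulator of these sensors, read 431 and 426, 274 and 373, and 191 and 215, and missed the threshold (adjusted p = 0.0573, limma). Trim25, a ubiquitin ligase that acts on RIG-I, was the most abundant sensor gene with 2323 and 2003 untreated, 1689 and 2097 with DMSO and 1392 and 1728 with LTK-14A, where DMSO and LTK-14A overlapped.

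Among the ubiquitin-like and ADP-ribosylation genes, 3 of 5 fell. Isg15 (ENSMUSG00000035692, chromosome 4, 156199424 to 156200818), a ubiquitin-like modifier of viral and host proteins, read 828 and 709 in the untreated libraries, 468 and 754 with DMSO and 192 and 337 with LTK-14A. The DMSO pair was wide and overlapped the untreated pair, while the LTK-14A pair stayed below (log2 fold change -1.22, SE 0.30, adjusted p = 0.0448, limma). Its transcript is 95.2% identical to the processed pseudogene AC151275.1 over 63.8% of its length, so the authors' counting could split its reads. Usp18, the protease that removes Isg15, read 650 and 558, 367 and 478, and 185 and 295, and missed the threshold (log2 fold change -0.84, adjusted p = 0.0678, limma).

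The remaining genes of this group lie close together on chromosome 16. Parp9 (35938470 to 35972605) read 690 and 426 untreated, 556 and 655 with DMSO and 231 and 319 with LTK-14A (log2 fold change -1.15, SE 0.25, adjusted p = 0.0292, limma). Parp14 (35832874 to 35871544), an ADP-ribosyltransferase with the highest total value of the 5, though not per kilobase of exon, read 1476 and 1000, 989 and 1131, and 382 and 602 (log2 fold change -1.14, SE 0.25, adjusted p = 0.0300, limma). Dtx3l, the ubiquitin ligase that works with Parp9, read 899 and 568, 529 and 688, and 364 and 480, and did not pass (log2 fold change -0.53, adjusted p = 0.232, limma). In all 3 genes both LTK-14A values were the lowest. Parp9 and Dtx3l share 458 exon bases on opposite strands, and with the counter's strand setting unknown, reads there cannot be assigned to either gene.

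Of the other 5 induced genes, 2 fell. Ifi27 (ENSMUSG00000064215, chromosome 12, 103434211 to 103440239), a small membrane protein, had 1034 and 1117 untreated, 994 and 1030 with DMSO and 451 and 407 with LTK-14A. Both LTK-14A values were below every other value, in a fall of 2.36-fold with the smallest standard error of the 39 genes (log2 fold change -1.24, SE 0.12, adjusted p = 0.00098, limma). Lgals3bp, a secreted galectin-binding glycoprotein with the highest total value of the 39, read 6614 and 5930, 5070 and 6314, and 3473 and 3980 (log2 fold change -0.61, SE 0.15, adjusted p = 0.0435, limma). Ifi35 had an adjusted p of 0.0522, Xaf1, a partner of an apoptosis inhibitor, 0.0579, and Rtp4, a chaperone of membrane receptors, 0.0905 (limma), with both LTK-14A values lowest in all 3 genes.

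None of the 14 antiviral effectors passed in either direction, and the median log2 fold change of the 14 was -0.36. With 6.58% of all genes falling and 3.98% rising, 0 of 14 is near the share of all genes and does not set the effectors apart from them. An unadjusted p under 0.05 was found for 4 of them, Ifit1, Oasl2 and Eif2ak2 with lower and Ifit2 with higher values, a share near the 26.3% of all genes. The Ifit genes, whose proteins bind viral RNA, parted from each other within 1 cluster on chromosome 19. Ifit1 (34640871 to 34650009) read 2769 and 1394 untreated, 1553 and 1943 with DMSO and 715 and 1263 with LTK-14A (log2 fold change -0.87, SE 0.36, adjusted p = 0.174, limma). Ifit2 (34550694 to 34576419) read 522 and 334, 337 and 374, and 525 and 694, so both LTK-14A values were the highest, by a narrow margin over untreated replicate 1. Its log2 fold change against DMSO was 0.76 (SE 0.23, adjusted p = 0.0807, limma), and it was called higher without untreated replicate 1 (adjusted p = 0.0192), without untreated replicate 2 (0.0188), with the 4 libraries alone (0.0211) and among genes with a mean of 20 or more (0.0215), in a range over the alternatives from 0.0188 to 0.362. Ifit3 (34583531 to 34588731) read 3460 and 2382, 1875 and 2593, and 2147 and 3315, and its groups overlapped throughout (log2 fold change 0.28, adjusted p = 0.575, limma). Its transcript is 97.8% identical to that of Ifit3b over 97.4% of its length, so its reads could be split between the copies.

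For the other effectors, too, the difference did not pass. Eif2ak2, the kinase PKR that stops translation, read 1892 and 1035, 1407 and 1423, and 778 and 896 (log2 fold change -0.76, adjusted p = 0.105, limma). It was called lower in the same 4 alternatives that called Ifit2 higher (adjusted p from 0.00318 to 0.0277), in a range over all alternatives from 0.00318 to 0.374. Oasl2, of the oligoadenylate synthetase family, read 2680 and 2047, 1737 and 2430, and 1099 and 1649 (log2 fold change -0.61, adjusted p = 0.162, limma). Both LTK-14A values of these genes were the lowest. Oas1a, the lowest member besides Ifitm1, read 70.4 and 87.7, 30.3 and 80.1, and 28.2 and 35.8, and its fold change of -0.62 against DMSO turned to 0.06 without DMSO replicate 2. Its transcript is 97.6% identical to that of Oas1g over 98.7% of its length, so its reads could be split between these genes.

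Mx1 and Mx2, dynamin-like GTPases against RNA viruses, and Rsad2, or viperin, had LTK-14A replicates further apart than the group means. Mx1 had 160 and 339 with LTK-14A against 287 and 377 with DMSO, Mx2 had 225 and 444 against 388 and 467, and Rsad2 had 222 and 608 against 452 and 512. Without LTK-14A replicate 1 their log2 fold changes went from -0.50, -0.43 and -0.39 to 0.04, 0.06 and 0.34. Bst2, or tetherin, which holds budding virus at the membrane, read 938 and 1358 with DMSO and 1255 and 1311 with LTK-14A, and its log2 fold change of 0.18 turned to -0.08 without DMSO replicate 1. Samhd1, which depletes nucleotides, read 553 and 653 with DMSO and 689 and 754 with LTK-14A (log2 fold change 0.26, adjusted p = 0.416, limma).

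The Ifitm proteins, which block fusion of viruses with membranes, spanned the whole range of levels. Per kilobase of exon, Ifitm3 had the highest level of the 39 genes with 3368 in the mean of DMSO, followed by Ifitm2 with 2095 and Lgals3bp with 1999, while Ifitm1 had 2.02. Ifitm3 read 2505 and 1996, 2150 and 2417, and 1707 and 1926 by total value (log2 fold change -0.33, adjusted p = 0.206, limma). Ifitm2 read 1267 and 685, 1342 and 1402, and 1051 and 1186. It shares 268 exon bases, 40.9% of its exons, with the coding gene Gm45717 on the same strand, so reads there could have been counted for either gene. Its transcript is also 97.0% identical to the processed pseudogene Gm11951 over 66.0% of its length. Ifitm1 was listed at 2.38 and 2.98 untreated, 2.15 and 2.27 with DMSO, and 7.62 and 0 with LTK-14A, at most 4.24 steps in any library, so no difference was detectable at this depth.

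**Figure D3:**
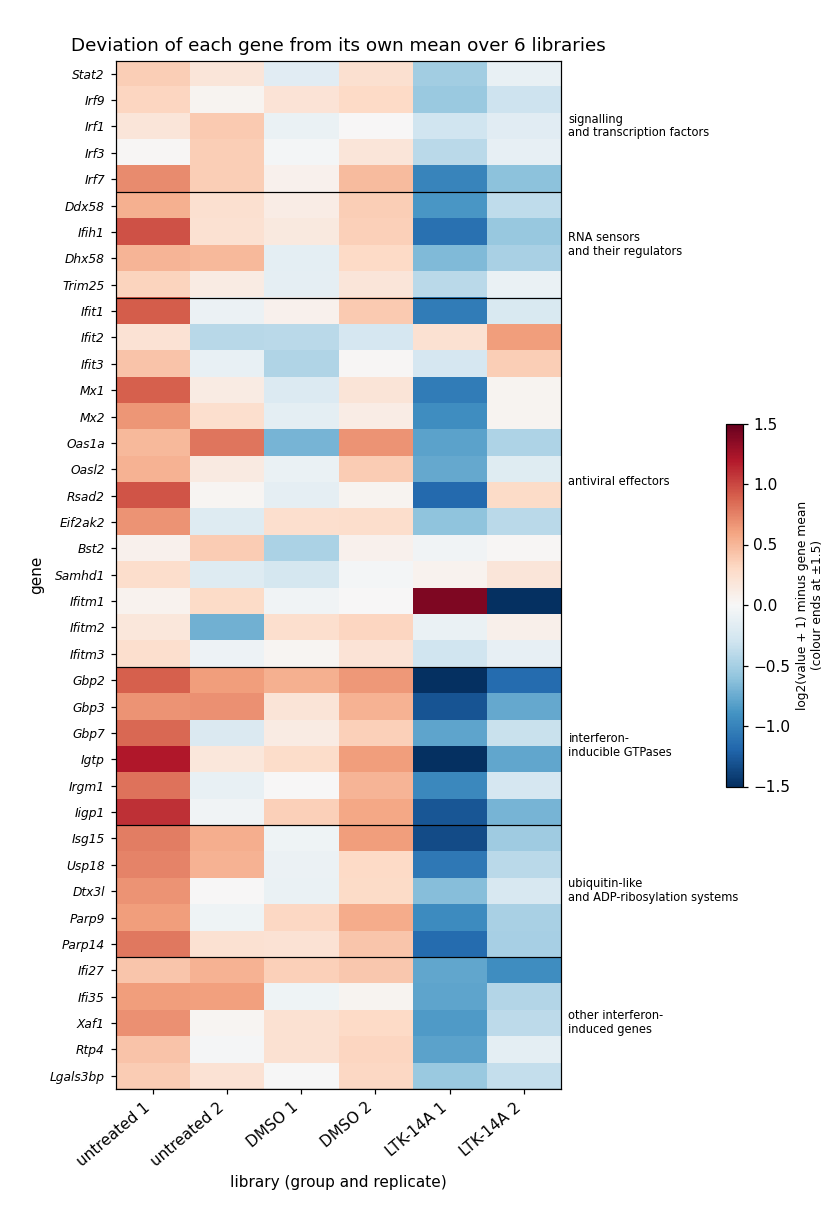
Deviation of log2(value + 1) from the gene's own mean over the 6 libraries (colour, ending at ±1.5) for the 39 genes (rows, by role) in each library (columns). The column of untreated replicate 1 is the warmest with a median deviation of 0.63, and that of LTK-14A replicate 1 the coldest with -0.79.

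DMSO against untreated cells asks what the solvent does on its own. None of the 39 genes passed (limma, adjusted over 24139 genes), where 0.0249% of all genes did, and 3 of the 39 had an unadjusted p under 0.05, against 5.83% of all genes. These were Ifi35, Irf1 and Dhx58. Ifi35, an interferon-induced protein that pairs with Nmi, read 456 and 454 untreated, 283 and 303 with DMSO and 170 and 218 with LTK-14A, so each group lay apart from the next (log2 fold change DMSO against untreated -0.63, SE 0.16, adjusted p = 0.804, limma). Irf1 read 552 and 636, 452 and 485, and 393 and 430 in the same order of groups. Ifitm2 had the largest difference above 0, with a log2 fold change of 0.56 (adjusted p = 0.804), and was called higher without untreated replicate 1. The median log2 fold change was -0.20 over the 39 genes and -0.0035 over all genes, and both DMSO libraries lay below both untreated libraries for 9 of the 39 (17.2% of all genes).

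LTK-14A against untreated cells shares the LTK-14A libraries with the comparison against DMSO, so the values below are not independent of those above. Here 18 of the 39 genes fell and 0 rose (limma), against 8.17% and 4.68% of all genes, with a median log2 fold change of -0.93. These were the 13 genes that fell against DMSO and, in addition, Irf1, Dhx58, Usp18, Ifi35 and Xaf1. Against untreated cells, Gbp2 had a log2 fold change of -2.12 (adjusted p = 0.000448), Gbp3 of -1.71, Ifi27 of -1.32 and Ifi35 of -1.24 (adjusted p = 0.00293, limma). None of the 14 antiviral effectors passed. Without LTK-14A replicate 1 the count was 4 (Gbp2, Gbp3, Ifi27 and Ifi35), without LTK-14A replicate 2 it was 10, and without the variance trend 4, while testing only genes with a mean of 20 or more gave 30. Without untreated replicate 1 the median was -0.63, and Ifit2 and Ifitm2 had log2 fold changes of 0.85 and 0.71.

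Over the 3 groups, the means of 29 of the 39 genes fell in the order untreated, DMSO, LTK-14A, against 23.5% of all genes. Without untreated replicate 1 the number was 17, so this order rested in part on that library. The share of all genes in this order without that library was not counted. Both LTK-14A libraries lay below all 4 others for 27 of the 39 (20.7% of all genes). The libraries separated fully in the order untreated, DMSO, LTK-14A for 6 of the 39 (5.41% of all genes), which were Irf1, Dhx58, Gbp3, Usp18, Ifi27 and Ifi35.

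Replicates of a group differed in the same direction over nearly the whole set. Replicate 2 was above replicate 1 for 39 of 39 genes with DMSO (48.5% of all genes), for 37 of 39 with LTK-14A (45.7%) and for 7 of 39 in untreated cells (47.1%). The median gaps, as log2 of replicate 2 over replicate 1, were 0.24, 0.41 and -0.39, each against 0 over all genes. Untreated replicate 1 held the highest of the 6 values for 30 of the 39 genes, against 13.4% of all genes, and LTK-14A replicate 1 held the lowest for 32, against 18.2% of all genes. The median deviation from the gene mean was 0.63 and 0.17 in the untreated libraries, -0.01 and 0.30 with DMSO and -0.79 and -0.33 with LTK-14A. The genes of a library are not independent samples, so these counts describe 6 libraries.

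**Figure D4:**
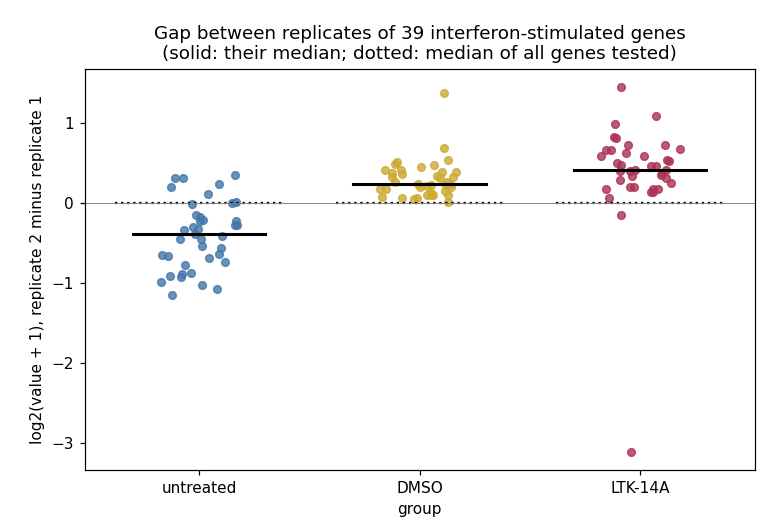
Gap between the replicates of each group, as log2(value + 1) of replicate 2 minus replicate 1 (vertical axis), with 1 point for each of the 39 genes. The solid lines are their medians, -0.39 untreated, 0.24 with DMSO and 0.41 with LTK-14A, and the dotted lines the median of all genes tested, at 0.

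Because replicates differed in the same direction over the set, the ratio of a pair of genes within a library was described as well. Pairs were picked after their values were seen, so no test is given. A ratio compares the same pair between libraries, where gene length cancels, and is no comparison of levels between the genes. Ifit2 over Ifit1 was 0.188 and 0.239 in the untreated libraries, 0.217 and 0.193 with DMSO and 0.734 and 0.549 with LTK-14A. Ifit3 over Ifit1 was 1.25 and 1.71, 1.21 and 1.33, and 3.00 and 2.62. Both LTK-14A values stood above the other 4 in each pair.

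Stat2 over Irf7 was 3.21 and 3.59 untreated, 3.47 and 3.48 with DMSO and 5.69 and 5.82 with LTK-14A. Igtp over Irgm1 was 0.893 and 0.833, 0.822 and 0.739, and 0.472 and 0.473. LTK-14A was highest in the first pair and lowest in the second. The untreated replicates were further apart in the pairs with Gbp7, where Gbp2 over Gbp7 was 0.514 and 0.900, 0.659 and 0.614, and 0.292 and 0.283, and Gbp3 over Gbp7 was 0.861 and 1.83, 1.02 and 1.1, and 0.687 and 0.723. LTK-14A was lowest in both of these. Mx2 over Mx1 did not separate the groups, with 1.11 and 1.42, 1.35 and 1.24, and 1.41 and 1.31. The Mx2 transcript is 95.3% identical to an Mx1 transcript over 34.8% of its length, so reads could be split between the pair. Dtx3l over Parp9 was 1.30 and 1.33, 0.952 and 1.05, and 1.58 and 1.5, with LTK-14A highest and DMSO lowest, and these genes share exon bases as given above.

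**Figure D5:**
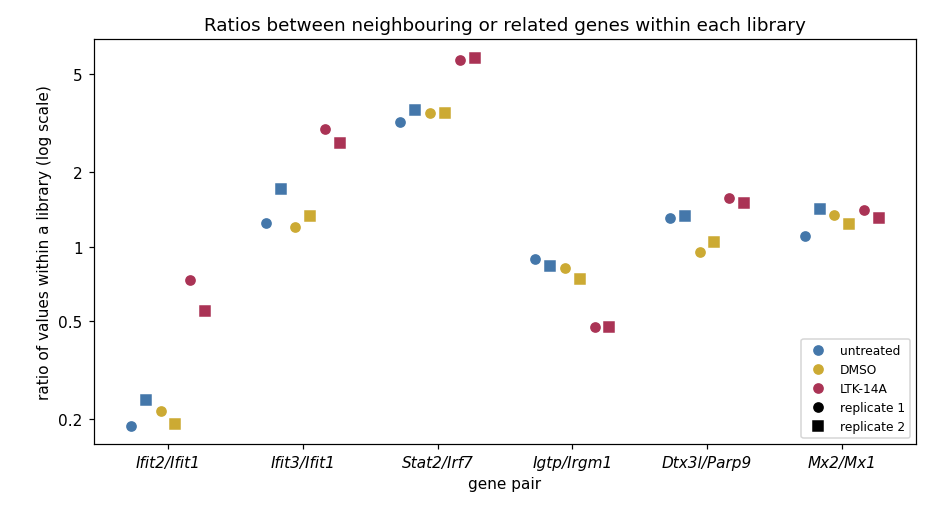
Ratio of the normalized values of 6 gene pairs (log axis) in each library, with circles for replicate 1 and squares for replicate 2. LTK-14A lies above the other groups for Ifit2/Ifit1, Ifit3/Ifit1, Dtx3l/Parp9 and Stat2/Irf7, below them for Igtp/Irgm1, and among them for Mx2/Mx1.

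The pathway around these genes was described from lists of ligands, receptors, signalling genes, sensors and further targets, whose counts in LTK-14A against DMSO stand against 6.58% of all genes that fell and 3.98% that rose. The receptor, signalling and sensor lists are short, and nothing is read from their counts beyond the genes named. Of 12 interferon genes, 2 were tested and neither passed, and 9, Ifnb1 and Ifng among them, were listed at 0 in all 6 libraries. Of 5 receptor genes tested, 1 fell with LTK-14A against DMSO and 0 rose. Ifngr1, the ligand-binding chain for interferon gamma, read 475 and 440 untreated, 343 and 405 with DMSO and 201 and 204 with LTK-14A (log2 fold change -0.88, SE 0.14, adjusted p = 0.00853, limma). Ifngr2 read 182 and 220, 233 and 175, and 283 and 219, Ifnar1 read 490 and 529, 517 and 498, and 515 and 493, and Ifnar2 read 291 and 305, 267 and 250, and 294 and 232. All 3 groups overlapped for Ifnar1 and Ifngr2. Both DMSO values of Ifnar2 lay below both untreated values, and the LTK-14A values spanned them. None of these 3 genes passed in any comparison. Ifngr1 did not pass without DMSO replicate 2, LTK-14A replicate 1, LTK-14A replicate 2 or the variance trend (adjusted p from 0.0759 to 0.0996, limma).

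Of 17 genes of JAK-STAT signalling tested, 2 fell and 1 rose. Jak3, a kinase of cytokine receptors, read 341 and 426, 252 and 320, and 133 and 166 (log2 fold change -0.93, adjusted p = 0.0244, limma), and Stat5a had a log2 fold change of -0.59 (adjusted p = 0.0327). Socs2, an inhibitor of growth hormone signalling, read 85.3 and 75.5, 101 and 80.0, and 207 and 167 (log2 fold change 1.03, adjusted p = 0.0219, limma). The receptor kinases Jak1, Jak2 and Tyk2 had log2 fold changes of 0.23, -0.22 and 0.08 and the inhibitors Socs1 and Socs3 of -0.51 and 0.27, none of which passed against DMSO.

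Of 19 nucleic acid sensing genes tested, 3 fell and 1 rose. Zbp1, a sensor of Z-form nucleic acid that interferon also induces, read 401 and 337 untreated, 219 and 387 with DMSO and 66.3 and 80.1 with LTK-14A (log2 fold change -1.98, SE 0.27, adjusted p = 0.00455, limma). Mavs, the mitochondrial adaptor of RIG-I and MDA5, read 427 and 449, 431 and 398, and 225 and 277 (log2 fold change -0.73, adjusted p = 0.0217, limma). The adaptor Myd88 had a log2 fold change of -0.90 (adjusted p = 0.0269) and the adaptor Ticam1 of 0.60 (adjusted p = 0.0494, limma). Ticam1 did not pass with a pseudocount of 0.1 (adjusted p = 0.0561), nor Myd88 with quantile normalization (adjusted p = 0.0505, limma). Tlr3, which signals through Ticam1, read 215 and 73.1, 143 and 174, and 84.8 and 98.1, and did not pass.

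Of 76 further interferon-stimulated genes tested, 14 fell and 0 rose with LTK-14A against DMSO, with a median log2 fold change of -0.58. The smallest adjusted p-values were those of the guanylate-binding gene Gbp10 (log2 fold change -1.62, adjusted p = 0.00578), the nucleotide kinase gene Cmpk2 (-1.70, 0.00933), Slfn8 (-1.39, 0.00985) and the helicase gene Helz2 (-1.07, 0.0152, limma). Against untreated cells, where 8.17% of all genes fell and 4.68% rose, 26 of the 76 fell and 0 rose, among them the ADP-ribosyltransferase gene Parp10 (log2 fold change -1.30, adjusted p = 0.00179, limma). Their libraries ranked as those of the 39 did, with median deviations of 0.60 and 0.15 untreated, -0.03 and 0.28 with DMSO and -0.71 and -0.25 with LTK-14A. An ISRE match lay in 37 of their 87 promoter windows, 42.53%. Of the 12 genes outside the 39 named here as changed against DMSO, 0 passed without the variance trend and 0 without LTK-14A replicate 1. Only Zbp1 passed without DMSO replicate 2, while 3 passed without DMSO replicate 1 (Ifngr1, Zbp1 and Gbp10) and 3 without LTK-14A replicate 2 (Zbp1, Gbp10 and Helz2).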

How the data were processed

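Total RNA of 6 samples was sequenced after removal of ribosomal RNA, from stranded libraries per the labels' protocols, and coordinates are those of mm10, which the submitters' processing notes name. Aligner, read counter, strand setting, annotation and normalization method were not given in the sources used here. Each gene and sample has 1 value, deposited by the authors on a log10 scale, and the values read as a log10 taken of a log2 normalized count, which no header states. They were turned back by taking 10 and then 2 to their power, which gave the normalized values. A deposited 0 was kept as 0, read as a placeholder for values of at most 1, which no header states either. Of low values, 23.3% to 28.6% lay within 0.01 of a whole number of steps, so whole reads were not recovered, no count test was used although one was planned for counts, and no counting interval is given.

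A gene was tested (24139 were) when 2 or more samples reached a value of 1. limma 3.58.1 (R 4.3.3) fitted log2(value + 1) with 3 group means over all 6 samples, a variance trend and no replicate block. Tests were two-sided with Benjamini-Hochberg adjustment at 0.05, and the fit was tested on simulated data. Exon overlaps came from GENCODE vM21, copies from BLAST 2.17.0 (at least 95% identity over at least 100 bases and 10% of the transcript), and promoters from RefSeq, matched by symbol for 30 of the 39 genes. Alternatives were quantile normalization, scaling without ribosomal and small RNA loci, no variance trend, no filter, a mean of at least 20, the replicate number as a block, a pseudocount of 0.1, a fit of the 2 compared groups alone, and each library left out with the filter applied to the rest.

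The 39 genes and all lists were chosen with earlier results of these data known. Every member is accounted for. Of the pathway, Ifnar1, Ifnar2, Ifngr1, Ifngr2, Jak1, Jak2, Tyk2, Ifnb1, Mavs, Tlr3, Socs1 and Socs3 were named, with up to 4 genes of each list that had the smallest adjusted p in LTK-14A against DMSO and up to 2 from each other comparison. A gene that this rule gives is not reported here. Python 3.11.15 with pandas 2.3.3, numpy 2.4.6 and matplotlib 3.10.9 made the other tables and the figures.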

Additional observations from a re-analysis of the deposited data

How the results depend on the processing

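In LTK-14A against DMSO, 13 of the 39 genes fell (6.58% of all genes). The count was 2 without the variance trend (3.53% of all genes) and 5 with a pseudocount of 0.1 (6.16%). When a library was left out, the median log2 fold change of the 39 ran from -0.92 to -0.51. Rises numbered 0, but 1 (Ifit2) with a mean of at least 20, 1 with the 2 groups alone and 0 to 1 when a library was left out. In LTK-14A against untreated, 18 fell, and the count was 4 without the variance trend, 30 with a mean of at least 20 and 4 to 22 when a library was left out, with 0 to 2 rises. In DMSO against untreated, 0 fell and 0 rose by limma (3 at an unadjusted p under 0.05), and 0 to 1 rose when a library was left out. The ordered means, 29 of 39, ranged from 17 to 32 when a library was left out. Each such fit leaves a group with 1 library. Neither the normalization alternatives nor the absence of a filter moved a count of these calls by over 1.5 times. No called gene changed direction, while 7, 21 and 4 of the 39 genes, all uncalled there, changed sign in at least 1 of the left-out fits of the comparison with the solvent, of the solvent with untreated cells and of LTK-14A with untreated cells. The labels do not say whether equal replicate numbers mark a shared batch. Over 13179 genes, the gaps between replicates correlated at 0.17 (untreated and DMSO), -0.02 (untreated and LTK-14A) and 0.05 (DMSO and LTK-14A). Such correlations cannot tell whether a batch was shared by the 39 genes, of which 39 with DMSO and 37 with LTK-14A were higher in replicate 2. In untreated cells 7 were, and a shared batch was not tested. With a replicate block, 16 fell in LTK-14A against DMSO (6.72% of all genes) and 19 in LTK-14A against untreated (8.42%). In DMSO against untreated 0 fell. Of the 12 pathway genes named as changed against DMSO, 11 passed with the block, the exception being Ticam1 (adjusted p = 0.0518, limma). Depth limits Ifitm1, and the spread of 2 libraries per group limits every call.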
